A study of Rattus norvegicus with 9 samples.

Results

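A set of 104 genes of rat alveolar macrophages had lower transcript levels 28 d after nitrogen mustard than in control animals, while their levels 1 d after the exposure stayed near the control. Alveolar macrophages engulf particles and debris in the air sacs. Nitrogen mustard (NM, mechlorethamine) alkylates and links the strands of DNA and damages lung tissue, and the series concerns the macrophages of the fibrosis that follows. The genes were chosen from the measured values: transcript levels in FPKM (fragments scaled by transcript length and library size) were summed per gene symbol, and means of log2(FPKM + 1) were compared between groups. A gene was a member where the NM day 28 mean lay at least 0.8 below the PBS mean, the NM day 1 mean lay within 0.4 of the PBS mean, every NM day 28 library lay below every NM day 1 and PBS library, and the PBS mean was at least 3 FPKM. Symbols of several families (Slc, Rab, Krt, Scgb, Psm, Mrp and RT1-) and 9 named genes were left out by the rule. The members are 104 of 16101 gene symbols, or 0.646%, and all 104 passed the filter for testing (at least 1 FPKM in at least 3 libraries), as did 9885 genes in all.

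The macrophages came from male Wistar rats whose lungs were massaged to release the cells. Rats of the groups NM day 28 and NM day 1 received 0.125 mg/kg NM into the trachea and gave cells 28 d or 1 d later. Rats of the PBS group received phosphate-buffered saline by the same route, and the labels give 0 as their days of exposure, and the time of their collection is not given. Each group had 3 libraries from biological replicates, numbered 0, 1 and 2, and values by library are given in that order throughout.

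Cells that enter division switch on a shared set of mitotic genes late in the cycle, among them the kinase Cdk1, proteins of the spindle and proteins of the kinetochore, by which chromosomes attach to it. Resident alveolar macrophages are known to renew themselves by division in the tissue. Macrophages also load peptides onto MHC class I molecules through the TAP transporter and its partners, take up surfactant and dying cells, and turn over the lipids these carry. Secretory and ciliated cells line the airways beside them and can be shed into the same fluid.

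Because the rule used all 3 groups, the members' differences are given as a description of what was chosen and carry no test. Their NM day 28 minus PBS difference of mean log2(FPKM + 1) ran from -2.92 for Hspa1a to -0.80 for Vsir, with a median of -1.07, against a median of -0.04 over all 9885 genes tested. On the linear scale the NM day 28 mean was 8.91% to 57.3% of the PBS mean, with a median of 44.7%. The NM day 1 minus PBS difference of the members ran from -0.39 to 0.39 with a median of -0.12, and it was below 0 in 73 members and above 0 in 31. Between the NM times the median difference of the members, NM day 28 minus NM day 1, was -1.04. In the fit over all genes (limma, Benjamini-Hochberg adjusted p under 0.05), 80 members were called lower at NM day 28 than in PBS and 24 were not, and 71 were called lower than at NM day 1; the calls over all tested genes were 3.98% and 6.88%. Both calls use the values that chose the members, so nothing is read from these counts. In the other direction 3.07% of tested genes were called higher at NM day 28 than in PBS and 4.75% higher than at NM day 1; between NM day 1 and PBS, 4.58% were called lower and 5.28% higher at NM day 1. Complete separation of the NM day 28 libraries below the other 6 was part of the rule, and 5.53% of all tested genes showed it.

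**Figure D1:**
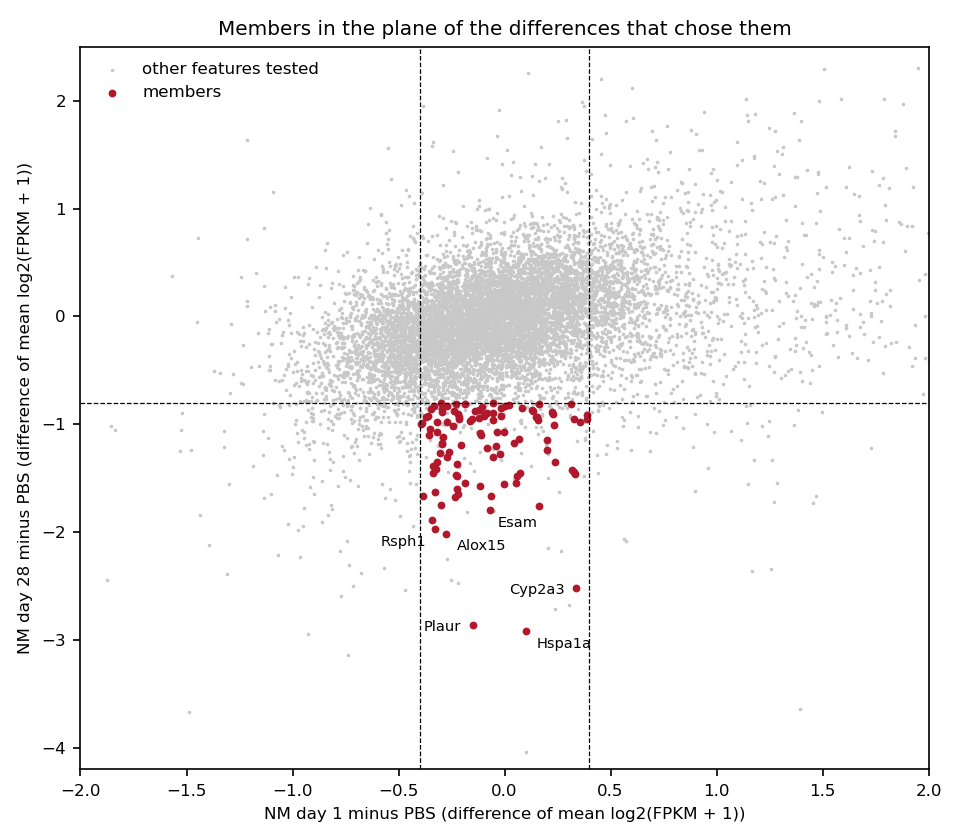
Each point is a gene tested, placed by its NM day 1 minus PBS difference (horizontal) and its NM day 28 minus PBS difference (vertical), both differences of group means of log2(FPKM + 1) with 3 libraries a group. Dashed lines mark the limits of the rule at -0.8 and at 0.4 on either side of 0; the members (red) fill the strip below and between them down to Hspa1a at -2.92, other genes in that strip failed another condition or were left out by name, and 148 other genes lie outside the axes.

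The set has no sharp edge. Without the condition on NM day 1, 170 symbols met the other conditions, of which 42 were lost for an NM day 1 fall and 24 for an NM day 1 rise past the limit. Just inside the limit at day 28 stood Pakap at -0.80 and Vsir at -0.80, and just outside it stood Arhgap30 and Ankrd39, both at -0.80 when rounded. At the upper limit for NM day 1, Tpx2 (0.39) was inside and Kifc1 (0.42) outside, and both encode proteins of the mitotic spindle. At the lower one Nrg4 (-0.39) was inside and Fam83f (-0.40) outside. A further 19 symbols met every condition and were left out only by name, among them Mki67, Hspa5, Hsp90b1, Psmb8, RT1-A1, RT1-CE10, Itln1, Bpifb1 and Cyp2f4. The mirror rule, for genes risen at day 28 only, found 60 symbols.

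The libraries differed in depth and in how many transcripts they recorded. Absolute read numbers were not used here; depth relative to NM day 1 replicate 0, read from the values under 1 FPKM, was 1.03 to 1.12 in the NM day 28 libraries, 1 to 1.47 in the NM day 1 libraries and 1.42 to 2.58 in the PBS libraries. Transcript rows above 0 numbered 11149 to 11339 at NM day 28, 12112 to 12516 at NM day 1 and 12145 to 12241 in PBS, so the NM day 28 libraries listed fewest transcripts. Low FPKM values are therefore less precise in the NM day 28 libraries than in the PBS libraries, and 43 members had a PBS mean under 10 FPKM. The label of the cells was checked on markers of resident alveolar macrophages (Itgax, Mrc1, Lpl and others), of which 14 of 15 were tested. By limma 3 of the 14 were lower and 3 higher at NM day 28 than in PBS, with a median difference of -0.36. Over all tested genes 3.98% were called lower and 3.07% higher. The summed FPKM of these markers was 3135 to 3359 at NM day 28, 2894 to 3566 at NM day 1 and 3372 to 6306 in PBS. Marco, a scavenger receptor of these cells, was listed at 0 in all 9 libraries. Neutrophil markers summed to 605 to 1070 FPKM at NM day 28, 741 to 1112 FPKM at NM day 1 and 304 to 484 FPKM in PBS, and of 10 tested 4 were higher and 0 lower at NM day 28 than in PBS by limma. Markers of monocytes and recruited macrophages summed to 1012 to 1693 FPKM at NM day 28, 1622 to 2020 FPKM at NM day 1 and 1484 to 2423 FPKM in PBS, and of 17 tested 3 were higher and 1 lower at NM day 28 than in PBS. The part of the mix of cells in the members' values was not tested.

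Genes of cell division formed a group of 12 members. They were Cdk1, the kinase that drives entry into mitosis; Cdca8 (borealin), a subunit of the chromosomal passenger complex; Tpx2, Hmmr and Spag5 (astrin), proteins of the spindle; Knstrn, the partner of Spag5; Cenpf of the kinetochore; Cdca3 and Troap; Ube2s, which extends ubiquitin chains for the anaphase-promoting complex; Chtf18, which loads the replication clamp; and Poc1a of the centriole. Their NM day 28 minus PBS differences ran from -1.58 to -0.89, with a median of -1.11, and their NM day 28 means were 28.5% to 53.7% of the PBS means. At NM day 1, 8 of the 12 had an NM day 1 mean above PBS, against 31 of all 104.

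Many promoters of genes expressed late in the cell cycle are known to carry CCAAT boxes, the site of the factor NF-Y, upstream of a cell cycle genes homology region (CHR), the letters TTTGAA, which the DREAM and MuvB complexes bind. The sequences are shown because these members belong to one known programme and sequence was not used by the rule. They are the 250 bases before the first listed RefSeq start of the 4 cell division members that hold both motifs there, written 5′ to 3′ on the strand of the gene, from RefSeq on the rat assembly GRCr8. Capitals mark CCAAT and TTTGAA, either as such or as their reverse complements ATTGG and TTCAAA.
Cdk1: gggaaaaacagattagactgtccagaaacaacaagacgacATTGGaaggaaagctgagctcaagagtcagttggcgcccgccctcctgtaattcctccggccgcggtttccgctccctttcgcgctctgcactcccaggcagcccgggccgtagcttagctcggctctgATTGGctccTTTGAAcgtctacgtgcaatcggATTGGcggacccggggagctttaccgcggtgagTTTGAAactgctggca
Cdca8: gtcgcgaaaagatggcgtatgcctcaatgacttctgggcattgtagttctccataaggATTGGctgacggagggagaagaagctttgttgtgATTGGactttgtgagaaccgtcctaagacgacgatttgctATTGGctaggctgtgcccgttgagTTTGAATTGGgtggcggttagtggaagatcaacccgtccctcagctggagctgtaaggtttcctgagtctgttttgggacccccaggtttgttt
Hmmr: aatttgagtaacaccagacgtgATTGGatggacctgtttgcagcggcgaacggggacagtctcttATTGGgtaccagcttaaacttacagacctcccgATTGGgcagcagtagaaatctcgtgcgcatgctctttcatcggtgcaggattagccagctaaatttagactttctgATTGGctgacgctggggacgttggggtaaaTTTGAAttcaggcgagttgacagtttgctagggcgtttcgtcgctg
Spag5: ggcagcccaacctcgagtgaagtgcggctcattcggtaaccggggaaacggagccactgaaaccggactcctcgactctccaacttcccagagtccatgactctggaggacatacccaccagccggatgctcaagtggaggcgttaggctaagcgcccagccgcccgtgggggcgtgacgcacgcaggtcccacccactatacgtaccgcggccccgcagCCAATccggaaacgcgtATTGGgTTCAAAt
The Cdk1 window is chr20:19265043-19265292 on the plus strand, and the Cdca8 window is chr5:142483200-142483449 on the minus strand. The Hmmr window is chr10:25665216-25665465 on the minus strand, and the Spag5 window is chr10:63696586-63696835 on the plus strand. Cdk1 shows 3 CCAAT boxes and 2 CHR matches, and the CHR match nearer to the start begins 16 bases before it. Cdca8 and Hmmr each show 4 CCAAT boxes and 1 CHR match, and in Cdca8 the CHR match shares its last letter with a CCAAT box. Spag5 shows 2 CCAAT boxes and 1 CHR match within the last 30 bases before the start.

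Promoter windows of 300 bases, 250 before and 50 after the start, were found for 81 of the 104 members and 11 of the 12 cell division members. CCAAT on either strand occurred in 9 of these 11 windows (81.8%), in 48.1% of the 81 member windows and in 38.6% of the windows of 7715 tested genes. TTTGAA, a motif added after the values were seen, occurred in 6 of 11 (54.5%), in 17.3% of the member windows and in 11.7% of those of tested genes; both together occurred in 5 of 11, in 11.1% and in 4.99%. The fifth was Cenpf. Across all 81 members the GC box GGGCGG stood in 59.3% of windows, against 62.0% for tested genes. The E-box CACGTG stood in 7.41% and 9.76%, and the ETS site in 6.17% and 9.24%. Higher in member windows were the AP-1 site (9.88% and 5.17%), PU.1 site (6.17% and 2.83%) and NRF1 site (3.70% and 1.88%). So were the TATA box (9.88% and 7.12%), CRE (4.94% and 3.38%) and interferon response element (3.70% and 3.11%). The ER stress, unfolded protein response and CLEAR elements stood in 0% of member windows and in 0.169%, 0.778% and 0.544% of those of tested genes. These shares are descriptions of letters and no test was made of them.

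Per-library values of 6 cell division members, chosen after their values were seen except for Ube2s, show the pattern. Cdk1 had 15.6, 5.68 and 13.8 FPKM in the NM day 28 libraries, 49.9, 34.6 and 34.9 FPKM in the NM day 1 libraries and 35.4, 31.4 and 26.9 FPKM in the PBS libraries. Ube2s had 74.7, 23.7 and 68.9 FPKM in the NM day 28 libraries, 126, 151 and 141 FPKM in the NM day 1 libraries and 162, 172 and 122 FPKM in the PBS libraries. In both genes NM day 28 replicate 1 was far below the other NM day 28 libraries. Separation of the NM day 28 libraries from the other 6 was required of every member by the rule. Cdca8 had 2.94, 2.53 and 3.03 FPKM in the NM day 28 libraries, 8.42, 9.67 and 12.1 FPKM in the NM day 1 libraries and 9.26, 14.2 and 6.28 FPKM in the PBS libraries. Its NM day 28 libraries lay close together, whereas PBS replicate 1 was the highest of all 9. Tpx2, which activates the Aurora A kinase on spindle microtubules, had 3.59, 3.09 and 3.41 FPKM in the NM day 28 libraries, 10.1, 10.96 and 9.13 FPKM in the NM day 1 libraries and 5.86, 8.36 and 8.32 FPKM in the PBS libraries. Hmmr had 1.96, 2.03 and 0.623 FPKM in the NM day 28 libraries, 7.54, 4.12 and 4.05 FPKM in the NM day 1 libraries and 3.05, 3.67 and 4.19 FPKM in the PBS libraries. Spag5 had 2.44, 1.305 and 2.08 FPKM in the NM day 28 libraries, 5.12, 6.13 and 8.06 FPKM in the NM day 1 libraries and 3.72, 5.598 and 5.06 FPKM in the PBS libraries. These 3 spindle genes were highest in NM day 1 libraries, with NM day 1 minus PBS differences of 0.39, 0.39 and 0.36 that all lie near the upper limit of the rule.

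**Figure D2:**
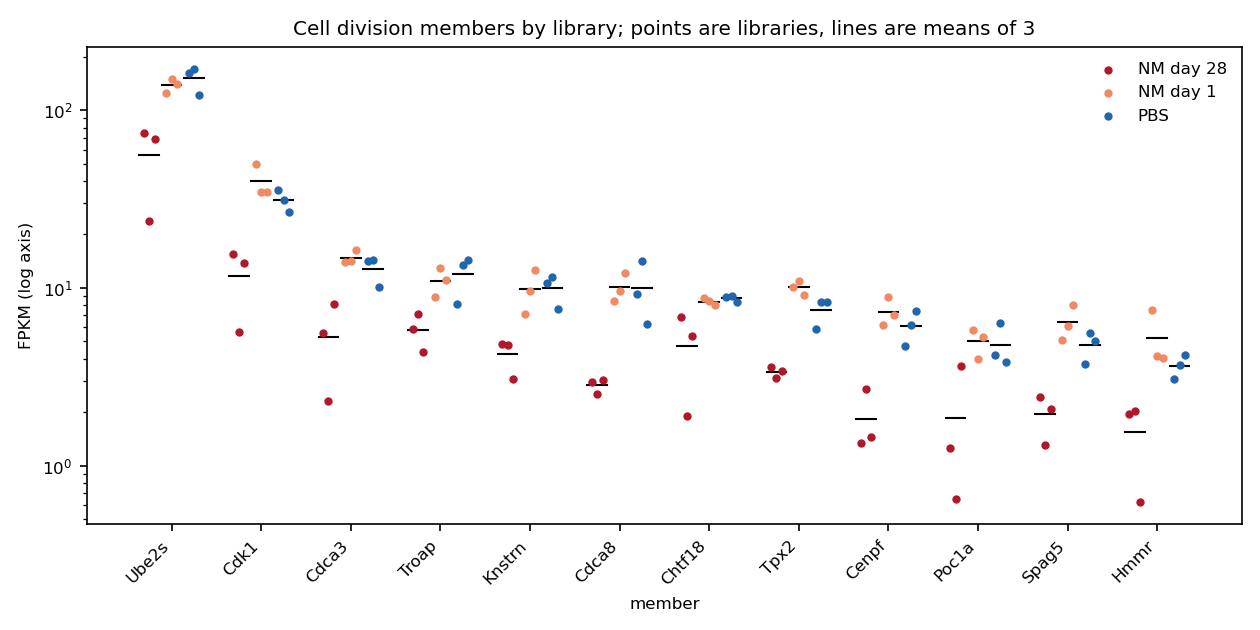
FPKM (log axis) of the 12 cell division members in each of the 9 libraries, with NM day 28 left, NM day 1 in the middle and PBS right within each gene; points are libraries and lines are means of 3. As the rule requires, every NM day 28 point lies below the NM day 1 and PBS points of its gene. The lowest NM day 28 point is replicate 1 in 8 of the 12 genes.

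The group mean of Cdk1 was 11.7 ± 5.29 FPKM at NM day 28, 39.8 ± 8.75 FPKM at NM day 1 and 31.2 ± 4.28 FPKM in PBS (SD, n = 3 each), which put NM day 28 at 37.5% of PBS. Ube2s, the most abundant of the 12, averaged 55.8 ± 27.9 FPKM at NM day 28, 139 ± 12.8 FPKM at NM day 1 and 152 ± 26.2 FPKM in PBS (SD, n = 3 each). Chtf18 is the member of this group that leaned most on a single library: its difference was -0.89, and -0.47 without NM day 28 replicate 1. Over the group the median was -1.11, and -1.04 without that library, with 11 of 12 still past -0.8.

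The members are the part of the mitotic programme that met the rule. A list of 86 genes of mitosis and chromosome segregation, put together after the values were seen, had 69 tested, 10 of them members. Among the other 59, 52 had an NM day 28 mean below PBS, with a median difference of -0.48, and 56 had an NM day 1 mean above PBS, with a median of 0.49. NM day 28 minus NM day 1 had a median of -0.94 and was below 0 in 58 of 59. Over all genes tested the medians were -0.04 for NM day 28 minus PBS and -0.04 for NM day 1 minus PBS. For NM day 28 minus NM day 1 the median was -0.004. The shares of all tested genes below or above 0 were not counted, so nothing is read from the counts of 52, 56 and 58. The summed FPKM of these 59 ran over separate ranges: 432 to 466 at NM day 28, 690.3 to 768 at NM day 1 and 533 to 581 in PBS. Of the 59, 34 lay above PBS by more than 0.4 at NM day 1 and so could not be members; 6 passed -0.8 at day 28, and 4 of these 6 were among those 34. The programme was not lower throughout: Aurka (0.32), Ttk (0.28) and Ccnb1 (0.10), chosen after their values were seen, had NM day 28 means above PBS.

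By the median of a role group, the largest proportional difference was in 7 members known from the epithelium of the airways. Bpifa1 is a secreted antimicrobial protein of the upper airway, Sec14l3 a lipid-binding protein of ciliated cells, Rsph1 a part of the radial spoke of motile cilia and Fcgbp a mucus protein. Cyp2a3 is a cytochrome P450 of rat airway and nasal epithelium, Aldh1a1 makes retinoic acid, and Vsig2 is a membrane protein of epithelia. Their NM day 28 means were 8.91% to 41.7% of the PBS means, with a median of 15.9%, and the median difference was -1.56. Without PBS replicate 1 the percentages ran from 13.9% to 55.4% with a median of 28.8%, and that of Fcgbp was 28.8%, against 8.91% with it. Without NM day 28 replicate 1 the median was 12.003%, and Cyp2a3 and Vsig2 stood at 2.26% and 5.61%, against 9.67% and 15.9% with it. In these bulk libraries fewer cells of a type and less RNA per cell cannot be told apart.

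Cyp2a3 had 0, 2.26 and 0.417 FPKM in the NM day 28 libraries, 10.6, 16.4 and 7.65 FPKM in the NM day 1 libraries and 5.91, 14.9 and 6.93 FPKM in the PBS libraries. It was listed at 0 in 1 NM day 28 library and reached 2.26 FPKM in another, below every NM day 1 and PBS library as the rule requires. Rsph1 had 0.705, 1.09 and 1.01 FPKM in the NM day 28 libraries, 3.81, 8.96 and 3.61 FPKM in the NM day 1 libraries and 3.83, 11.2 and 6.404 FPKM in the PBS libraries, a difference of -1.98. Vsig2 had 0, 1.82 and 0.559 FPKM in the NM day 28 libraries, 6.31, 6.03 and 3.63 FPKM in the NM day 1 libraries and 2.68, 8.28 and 3.98 FPKM in the PBS libraries. It too was listed at 0 in an NM day 28 library, and PBS replicate 1 was the highest library for both genes. Aldh1a1 had 2.33, 1.605 and 2.66 FPKM in the NM day 28 libraries, 8.98, 11.6 and 5.42 FPKM in the NM day 1 libraries and 6.37, 10.98 and 8.18 FPKM in the PBS libraries. Bpifa1, by far the most abundant of them, had 256, 142 and 254 FPKM in the NM day 28 libraries, 379, 645 and 296 FPKM in the NM day 1 libraries and 288, 779 and 497 FPKM in the PBS libraries. Its gap was narrow, since the highest NM day 28 library and the lowest PBS library stood close together.

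**Figure D3:**
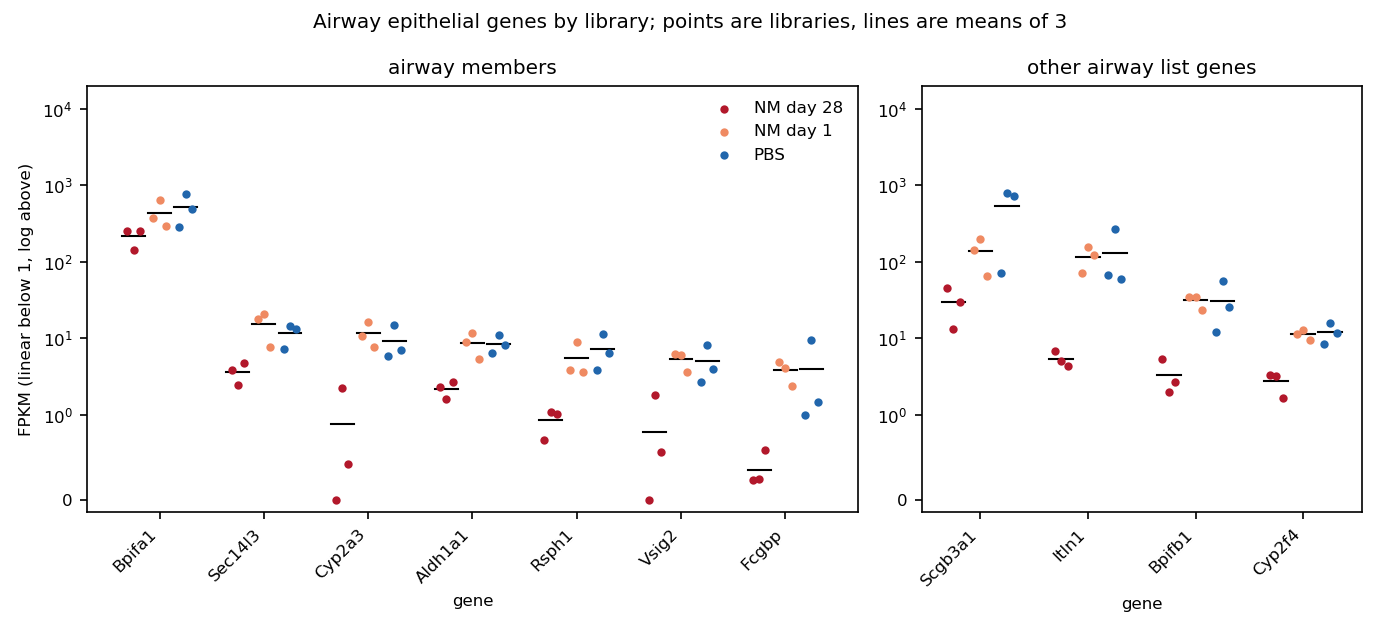
FPKM by library (linear below 1, log above) of the 7 airway members and of the 4 other airway list genes named in the text; NM day 28 is left, NM day 1 in the middle and PBS right within each gene, points are libraries and lines are means of 3. PBS replicate 1, the middle PBS point, is the highest PBS library of all 7 members. The NM day 28 points of the members and of Itln1, Bpifb1 and Cyp2f4, which met the rule, lie below their NM day 1 and PBS points as the rule requires.

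All 7 airway members had their highest PBS value in replicate 1, against 47 of all 104. Without that library the median difference of the 7 was -1.38, and 6 of 7 remained past -0.8; Fcgbp had -1.47 with it and -0.72 without it. Of 21 listed airway epithelial markers 11 were tested, 2 of them members. Of the other 9 genes 5 were lower at NM day 28 than in PBS by limma and 0 higher (8 and 0 at an unadjusted p under 0.05), with a median of -1.91. The calls over all tested genes were 3.98% lower and 3.07% higher. Itln1, an intelectin, fell by 4.04 (SE 0.47, limma, adjusted p = 0.000459). Bpifb1, a relative of Bpifa1, fell by 2.71 (SE 0.44, adjusted p = 0.00386), Cyp2f4, a P450 of club cells, by 1.80 (SE 0.27, adjusted p = 0.00233) and Scgb3a1, a secretoglobin, by 3.67 (SE 0.78, adjusted p = 0.0154). The call of Scgb3a1 was lost without PBS replicate 1 (adjusted p = 0.0702) or PBS replicate 2 (adjusted p = 0.0506), and over all alternatives its adjusted p ran from 0.00059 to 0.0702. Itln1, Bpifb1 and Cyp2f4 met every condition of the rule and were left out of the members by name, and they are counted in the 9 and in the 5. Their calls use the values on which the rule acts. Nothing is therefore read from those calls, from the count of 5 or from the median of the 9. The summed FPKM of the list was 918 to 1468 at NM day 28, 1695 to 3858 at NM day 1 and 1636 to 8817 in PBS, and the part of other cell types in the members' values was not tested. On a list of motile cilia genes added after the values were seen, the 7 tested genes other than Rsph1 had a median difference of 0.09. Markers of alveolar epithelium summed to 308 to 408 FPKM at NM day 28, 1037 to 3068 at NM day 1 and 242 to 365 in PBS, so that the ranges of NM day 28 and PBS overlapped.

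Antigen presentation and immune regulation held 8 members, with differences from -1.89 to -0.80 and a median of -1.02. Tap2 is a subunit of the peptide transporter TAP, Tapbp (tapasin) and Tapbpl help to load peptides onto MHC class I, and Cd1d1 presents lipids to natural killer T cells. Vsir (VISTA) restrains T cells, Rtp4 is interferon-inducible, Clec2l is a C-type lectin-like protein, and Ly6cl1 belongs to the Ly6 family, whose near-identical copies make its value uncertain. Clec2l had the largest difference, -1.89, with 71.3, 114 and 59.3 FPKM in the NM day 28 libraries, 250.0, 170.1 and 287 FPKM in the NM day 1 libraries and 235, 349 and 306 FPKM in the PBS libraries. As the rule requires, no NM day 28 library reached the lowest NM day 1 library. Cd1d1 had 5.89, 2.77 and 4.42 FPKM in the NM day 28 libraries, 6.696, 9.14 and 8.57 FPKM in the NM day 1 libraries and 11.03, 8.21 and 8.47 FPKM in the PBS libraries, all low values. Vsir had 98.5, 113 and 103 FPKM in the NM day 28 libraries, 141, 170.2 and 137 FPKM in the NM day 1 libraries and 184, 206 and 162 FPKM in the PBS libraries. Vsir was evenly lower in the NM day 28 libraries, which spanned a narrower range than the other groups. The mean of Clec2l was 81.5 ± 28.6 FPKM at NM day 28, 236 ± 59.9 FPKM at NM day 1 and 297 ± 57.4 FPKM in PBS (SD, n = 3 each), or 27.5% of PBS.

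Tap2, Tapbp and Tapbpl had NM day 28 means of 43.4%, 51.9% and 46.4% of PBS. A list of 16 genes of MHC class I peptide loading, added after the values were seen, had 11 tested genes that were not members, and 10 of them had NM day 28 means below PBS, with a median of -0.54. Among them were Calr (-0.85), a chaperone of the loading complex, B2m (-0.57), the light chain of MHC class I, and Tap1 (-0.54), the partner of Tap2. At NM day 1 the median of the 11 was -0.06 and 5 lay above PBS. Psmb8, a subunit of the immunoproteasome, and the MHC class I genes RT1-A1 and RT1-CE10 met every condition and were left out by name. Psmb8 is counted among the 11, although the rule acts on its values. The shares of all tested genes below or above PBS were not counted. Nothing is therefore read from the counts of 10 and 5 or from the medians of the 11.

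Secreted factors, receptors and adhesion proteins gave 17 members, with a median difference of -1.08, and 15 of the 17 had NM day 1 means below PBS. The ligands were Angpt1, which activates the endothelial receptor Tie2, Nrg4, a ligand of ErbB4, and the secreted Fam3c. The receptors were Plaur, which holds urokinase at the cell surface, Procr, the endothelial protein C receptor, Ramp3, which modifies the calcitonin receptor-like receptor, the Wnt receptor Fzd4, the BMP receptor Acvr1, the semaphorin receptor Plxna2, the lipoprotein receptor Vldlr and the progestin receptor Paqr5. Esam and Nectin4 are adhesion proteins, App is the amyloid precursor, Htra4 a serine protease and Or10aa3 an olfactory receptor, whose relatives make its value uncertain; Oaf was the last.

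Plaur had 0.0532, 23.8 and 28.6 FPKM in the NM day 28 libraries, 33.3, 104 and 59.4 FPKM in the NM day 1 libraries and 32.8, 105 and 81.6 FPKM in the PBS libraries. Its difference of -2.86 rested largely on 1 library, NM day 28 replicate 0, and was -1.30 without it. Esam had 2.901, 4.5001 and 3.45 FPKM in the NM day 28 libraries, 15.6, 13.9 and 13.1 FPKM in the NM day 1 libraries and 17.2, 20.97 and 9.02 FPKM in the PBS libraries. Ramp3 had 41.6, 43.9 and 35.2 FPKM in the NM day 28 libraries, 90.5, 137 and 151 FPKM in the NM day 1 libraries and 127, 155 and 108 FPKM in the PBS libraries. Both were low in all 3 NM day 28 libraries, and their means at NM day 28 were 22.99% and 30.8% of the PBS means. Fam3c had 158, 168 and 150.1 FPKM in the NM day 28 libraries, 233, 273 and 302 FPKM in the NM day 1 libraries and 443, 344 and 246 FPKM in the PBS libraries. Fzd4 had 0.631, 1.72 and 0.642 FPKM in the NM day 28 libraries, 3.22, 2.96 and 2.71 FPKM in the NM day 1 libraries and 3.48, 4.47 and 3.92 FPKM in the PBS libraries. Acvr1 had 1.48, 0.763 and 1.23 FPKM in the NM day 28 libraries, 1.58, 2.91 and 2.82 FPKM in the NM day 1 libraries and 2.53, 4.25 and 3.06 FPKM in the PBS libraries. For Acvr1 the highest NM day 28 library stood just below the lowest NM day 1 library. Procr had 11.9, 7.94 and 8.42 FPKM in the NM day 28 libraries, 23.3, 12.8 and 17.2 FPKM in the NM day 1 libraries and 15.996, 19.9 and 16.98 FPKM in the PBS libraries, again with a narrow gap.

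Plaur and Procr are on a list of coagulation and fibrinolysis genes, of which 10 of 27 were tested. Of the other 8, 0 were lower and 1 was higher at NM day 28 than in PBS by limma (1 and 1 at an unadjusted p under 0.05), with a median of -0.09. The higher gene was Plau, urokinase, the ligand of Plaur. Plau had 25.1, 28.4 and 19.4 FPKM in the NM day 28 libraries, 20.04, 23.3 and 12.8 FPKM in the NM day 1 libraries and 10.5, 11.3 and 14.2 FPKM in the PBS libraries, and it rose by 0.95 (SE 0.23, limma, adjusted p = 0.0320); the adjusted p ran from 0.0216 to 0.121 over the alternatives. Plau stood above PBS at NM day 1 too, by 0.57 (limma, adjusted p = 0.153). Its receptor Plaur was chosen by the rule for being lower and leaned on NM day 28 replicate 0. Nothing is read from the opposite directions of ligand and receptor. Plat, the tissue activator of plasminogen, had 0, 0.397 and 0.487 FPKM in the NM day 28 libraries, 7.66, 4.02 and 5.77 FPKM in the NM day 1 libraries and 0.9002, 3.97 and 0.385 FPKM in the PBS libraries, with a difference from PBS of -0.88 (adjusted p = 0.228). Vwf (-0.79, adjusted p = 0.0945) did not pass either.

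Metabolism and mitochondria gave 17 members, with differences from -2.01 to -0.81 and a median of -0.98. Alox15 is the lipoxygenase that oxidises arachidonic and linoleic acid, Tgm1 cross-links proteins, Ddah1 degrades asymmetric dimethylarginine, an inhibitor of nitric oxide synthases, and Duoxa2 matures the hydrogen peroxide source Duox2. Fbp1 and Pfkfb1 set the balance of glycolysis and gluconeogenesis, Prodh degrades proline, Umps makes UMP and Mdh1 is the cytosolic malate dehydrogenase. Gstm2, Cbr3, Suox, Tst and Pdxk act on glutathione conjugates, carbonyls, sulfite, cyanide and vitamin B6. Atp5f1e, Ndufb9 and Tomm7 are small subunits of ATP synthase, complex I and the outer membrane import pore.

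Alox15 had 10.03, 7.62 and 7.58 FPKM in the NM day 28 libraries, 33.2, 27.03 and 30.7 FPKM in the NM day 1 libraries and 49.1, 37.6 and 26.9 FPKM in the PBS libraries. It had the widest gap of all 104 members, 1.34 on the log2 scale between the highest NM day 28 library and the lowest of the other 6. Tgm1 had 17.7, 15.8 and 18.6 FPKM in the NM day 28 libraries, 47.5, 52.9 and 46.9 FPKM in the NM day 1 libraries and 50.8, 76.3 and 57.5 FPKM in the PBS libraries, with the next widest gap, 1.29. Alox15 averaged 8.41 ± 1.399 FPKM at NM day 28, 30.3 ± 3.08 FPKM at NM day 1 and 37.8 ± 11.1 FPKM in PBS (SD, n = 3 each), which put the NM day 28 mean at 22.2% of PBS. Tgm1 averaged 17.4 ± 1.41 FPKM at NM day 28, 49.1 ± 3.31 FPKM at NM day 1 and 61.5 ± 13.2 FPKM in PBS (SD, n = 3 each). Ddah1 had 2.36, 1.15 and 1.06 FPKM in the NM day 28 libraries, 7.59, 3.72 and 4.25 FPKM in the NM day 1 libraries and 4.49, 8.71 and 7.85 FPKM in the PBS libraries. Its NM day 28 mean was 21.7% of PBS, although its values are low in every group.

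Prodh had 2.07, 2.14 and 2.96 FPKM in the NM day 28 libraries, 5.71, 5.01 and 4.95 FPKM in the NM day 1 libraries and 4.48, 6.38 and 9.92 FPKM in the PBS libraries. Umps had 21.05, 24.5 and 20.1 FPKM in the NM day 28 libraries, 33.2, 34.2 and 42.1 FPKM in the NM day 1 libraries and 52.6, 41.1 and 39.5 FPKM in the PBS libraries. By the rule both were lower in each NM day 28 library, and neither had an NM day 28 library far from the rest. Mdh1 had 122, 113 and 109 FPKM in the NM day 28 libraries, 182, 154 and 151 FPKM in the NM day 1 libraries and 314, 197 and 137 FPKM in the PBS libraries. Mdh1 was highest in PBS replicate 0 and its difference was -0.83, or -0.52 without that library. Gstm2 had 4.12, 3.65 and 2.83 FPKM in the NM day 28 libraries, 12.2, 9.46 and 5.203 FPKM in the NM day 1 libraries and 5.21, 17.5 and 4.48 FPKM in the PBS libraries. Here the difference of -0.93 rested on PBS replicate 1 and was -0.37 without it, and reads of related Mu-class genes may be shared.

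Atp5f1e had 606, 329.5 and 653 FPKM in the NM day 28 libraries, 824, 692 and 969.9 FPKM in the NM day 1 libraries and 1085, 1227 and 867 FPKM in the PBS libraries. Tomm7 had 250.5, 181 and 248 FPKM in the NM day 28 libraries, 315, 314 and 382 FPKM in the NM day 1 libraries and 496, 437 and 281 FPKM in the PBS libraries. In both, NM day 28 replicate 1 was the lowest library of all 9. Tomm7 and the chaperonin Hspe1 are on a list of mitochondrial import genes and chaperones, of which 26 of 32 were tested. Of the other 24, 1 was lower and 0 higher at NM day 28 than in PBS by limma (3 and 1 at an unadjusted p under 0.05), with a median of -0.27. The lower gene was Timm13, a small chaperone of the intermembrane space, which fell by 0.90 (SE 0.25, limma, adjusted p = 0.0468, and 0.0414 to 0.174 over the alternatives). Timm23 (-0.58, adjusted p = 0.0728), Samm50 (-0.66, adjusted p = 0.149) and Hspa9 (0.63, adjusted p = 0.0893) did not pass.

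Chaperones and proteins of the endoplasmic reticulum and Golgi gave 8 members, with a median difference of -0.98: Hspa1a, the inducible cytosolic Hsp70; Hspe1, the lid of the mitochondrial chaperonin; Pfdn6 of prefoldin; Hypk of the N-terminal acetylation complex; Ficd, which modifies the chaperone BiP; Man1a1, which trims mannose; Tmed9, a cargo receptor; and Selenok, a selenoprotein of the membrane. Hspa1a had 1.15, 0 and 7.14 FPKM in the NM day 28 libraries, 11.2, 68.2 and 10.1 FPKM in the NM day 1 libraries and 10.2, 72.4 and 8.23 FPKM in the PBS libraries. Hspa1a varied widely within groups: NM day 1 replicate 1 and PBS replicate 1 stood far above their groups, and its near-identical copy makes the value uncertain. Its mean was 2.76 ± 3.84 FPKM at NM day 28, 29.8 ± 33.2 FPKM at NM day 1 and 30.3 ± 36.5 FPKM in PBS (SD, n = 3 each). Hspe1 had 204, 145 and 204 FPKM in the NM day 28 libraries, 232, 274 and 277 FPKM in the NM day 1 libraries and 427, 354 and 240.1 FPKM in the PBS libraries. Tmed9 had 74.6, 46.04 and 61.9 FPKM in the NM day 28 libraries, 91.9, 111 and 106 FPKM in the NM day 1 libraries and 149, 119 and 102 FPKM in the PBS libraries. Both were lowest in NM day 28 replicate 1 and highest in PBS replicate 0. Pfdn6 had a difference of -1.18, and -0.76 without NM day 28 replicate 1. A transcript row summed into Pfdn6 was listed at 0 in that library, which can be a failed estimate. The same row had 72.9 and 35.1 FPKM in NM day 28 replicates 0 and 2. Hspa5 (BiP itself) and Hsp90b1 met every condition and were left out by name.

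The cytoskeleton, traffic and signalling gave 17 members, from -1.67 for Grap to -0.80 for Pakap. Myl6 is a light chain of non-muscle myosin, Tuba1a an alpha-tubulin with close copies, Kif3a a kinesin motor, Mapre3 a protein of growing microtubule ends, and Csrp1 and Fhl2 LIM proteins. Ap2s1 and Hip1r act in clathrin-mediated uptake, Lamtor2 is part of the Ragulator complex that recruits mTORC1 to lysosomes, Rap2a is a small GTPase, and Grap, Ptpn13, Inpp1 and Cdc42bpg act in signalling. Tor1aip1 of the nuclear envelope, Pakap, an anchor of protein kinase A, and Tmem9 complete the group.

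Myl6, the most abundant member of all, had 1081, 539 and 1121 FPKM in the NM day 28 libraries, 1483, 1432 and 1728 FPKM in the NM day 1 libraries and 2655, 1925 and 1319 FPKM in the PBS libraries. Its mean at NM day 28 was 46.5% of PBS. Ap2s1 had 217, 173 and 251 FPKM in the NM day 28 libraries, 306, 335 and 427 FPKM in the NM day 1 libraries and 445, 404 and 303 FPKM in the PBS libraries. Lamtor2 had 169, 91.5 and 191 FPKM in the NM day 28 libraries, 209, 222 and 209 FPKM in the NM day 1 libraries and 278, 284 and 261 FPKM in the PBS libraries. In these 3 genes NM day 28 replicate 1 was again the lowest library, and for Lamtor2 the difference was -0.93 with it and -0.60 without it. Grap had 2.17, 1.79 and 1.86 FPKM in the NM day 28 libraries, 9.78, 5.13 and 6.64 FPKM in the NM day 1 libraries and 6.66, 7.87 and 11.1 FPKM in the PBS libraries. The NM day 28 libraries of Grap lay close together and well below the rest. Tuba1a had 31.95, 16.9 and 34.8 FPKM in the NM day 28 libraries, 52.8, 68.8 and 69.7 FPKM in the NM day 1 libraries and 71.9, 65.3 and 49.1 FPKM in the PBS libraries. Kif3a had 12.4, 15.1 and 11.03 FPKM in the NM day 28 libraries, 24.2, 28.002 and 25.6 FPKM in the NM day 1 libraries and 24.6, 27.4 and 33.1 FPKM in the PBS libraries. Pakap had 4.001, 6.88 and 5.38 FPKM in the NM day 28 libraries, 10.97, 11.3 and 7.11 FPKM in the NM day 1 libraries and 10.4, 9.998 and 9.72 FPKM in the PBS libraries, with a gap so small that NM day 28 replicate 1 and NM day 1 replicate 2 nearly met.

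Tuba1a and Kif3a are on a list of microtubule and motor genes, of which 28 of 33 were tested. Of the other 26, 0 were lower and 0 higher at NM day 28 than in PBS by limma (9 and 1 at an unadjusted p under 0.05), with a median of -0.27. The share of all tested genes at that unadjusted p is not given here, so nothing is read from the 9 and 1. The smallest p-values among the 26 belonged to Tubb4b (-0.76, adjusted p = 0.0676), Dctn1 (-0.46, adjusted p = 0.0820), Dynll2 (-0.45, adjusted p = 0.0874) and Dynll1 (-0.66, adjusted p = 0.0885).

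**Figure D4:**
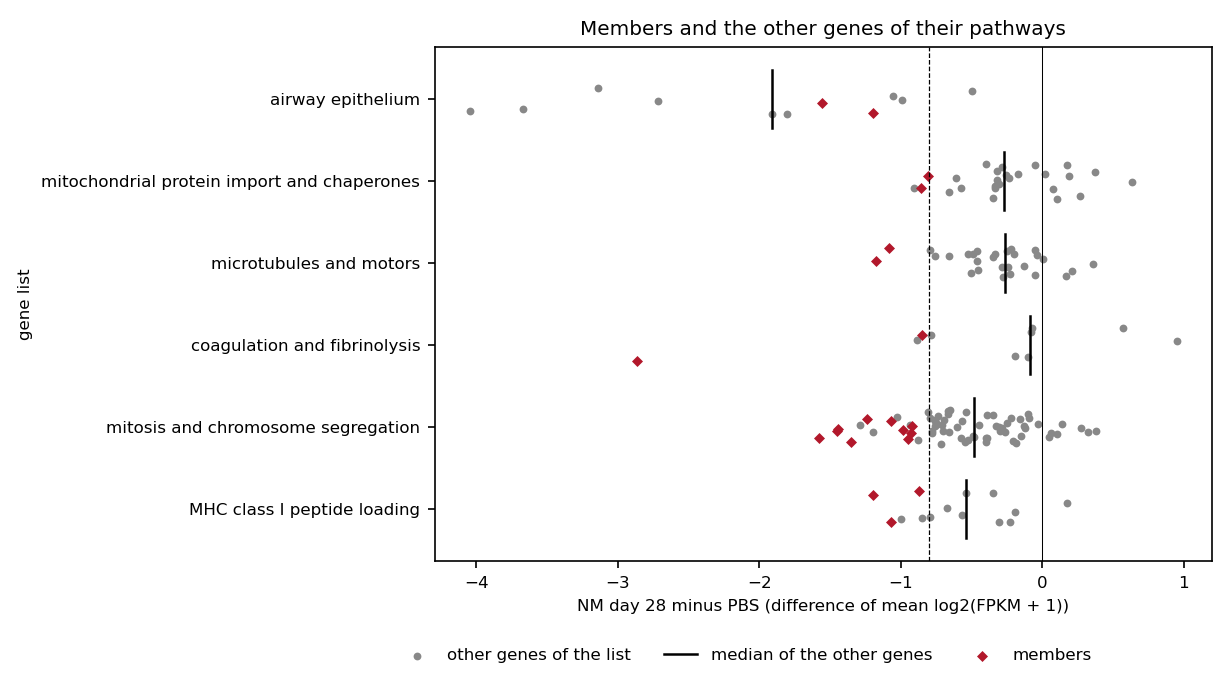
NM day 28 minus PBS difference of mean log2(FPKM + 1) of the members (red diamonds) and of the other tested genes (grey) on 6 lists, with the median of the other genes as a bar, 0 as a solid line and -0.8 as a dashed line. The other genes have a median of -1.91 for airway epithelium, -0.48 for mitosis and -0.54 for MHC class I loading, against -0.27, -0.27 and -0.09 for mitochondrial import, microtubules and coagulation. Itln1, Bpifb1 and Cyp2f4 (airway) and Psmb8 (MHC class I loading) are among the other genes although they met every condition of the rule. They were left out of the members by name, so nothing is read from the contrast of these medians.

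RNA, ribosome and chromatin proteins gave 13 members, with a median of -1.15. Leo1 is a subunit of the PAF1 elongation complex, Larp7 binds the 7SK RNA, Snrnp35 belongs to the minor spliceosome, Rrs1 and Rrp15 make ribosomes, and Rpph1 is the RNA of RNase P. Hmgn5, Anp32a and Cdyl2 act on chromatin, Jdp2 represses AP-1 sites, Rps4y2 is a ribosomal protein with close copies, and Nupr2 and Zfp593 complete the group. Rpph1 had 160.3, 223 and 227 FPKM in the NM day 28 libraries, 268, 392 and 362 FPKM in the NM day 1 libraries and 242, 397 and 530.0 FPKM in the PBS libraries. Rrs1 had 0.817, 3.59 and 3.31 FPKM in the NM day 28 libraries, 6.36, 7.41 and 6.996 FPKM in the NM day 1 libraries and 7.21, 6.35 and 7.55 FPKM in the PBS libraries. NM day 28 replicate 0 was far the lowest library of Rrs1, whose difference was -1.28, and -0.85 without it. All 13 remained past -0.8 without NM day 28 replicate 1. The other 5 members, for which no role is given, were AA926063, Fbxl15, Spag7, Spryd3 and Tmem109, with differences from -1.42 to -0.81.

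**Figure D5:**
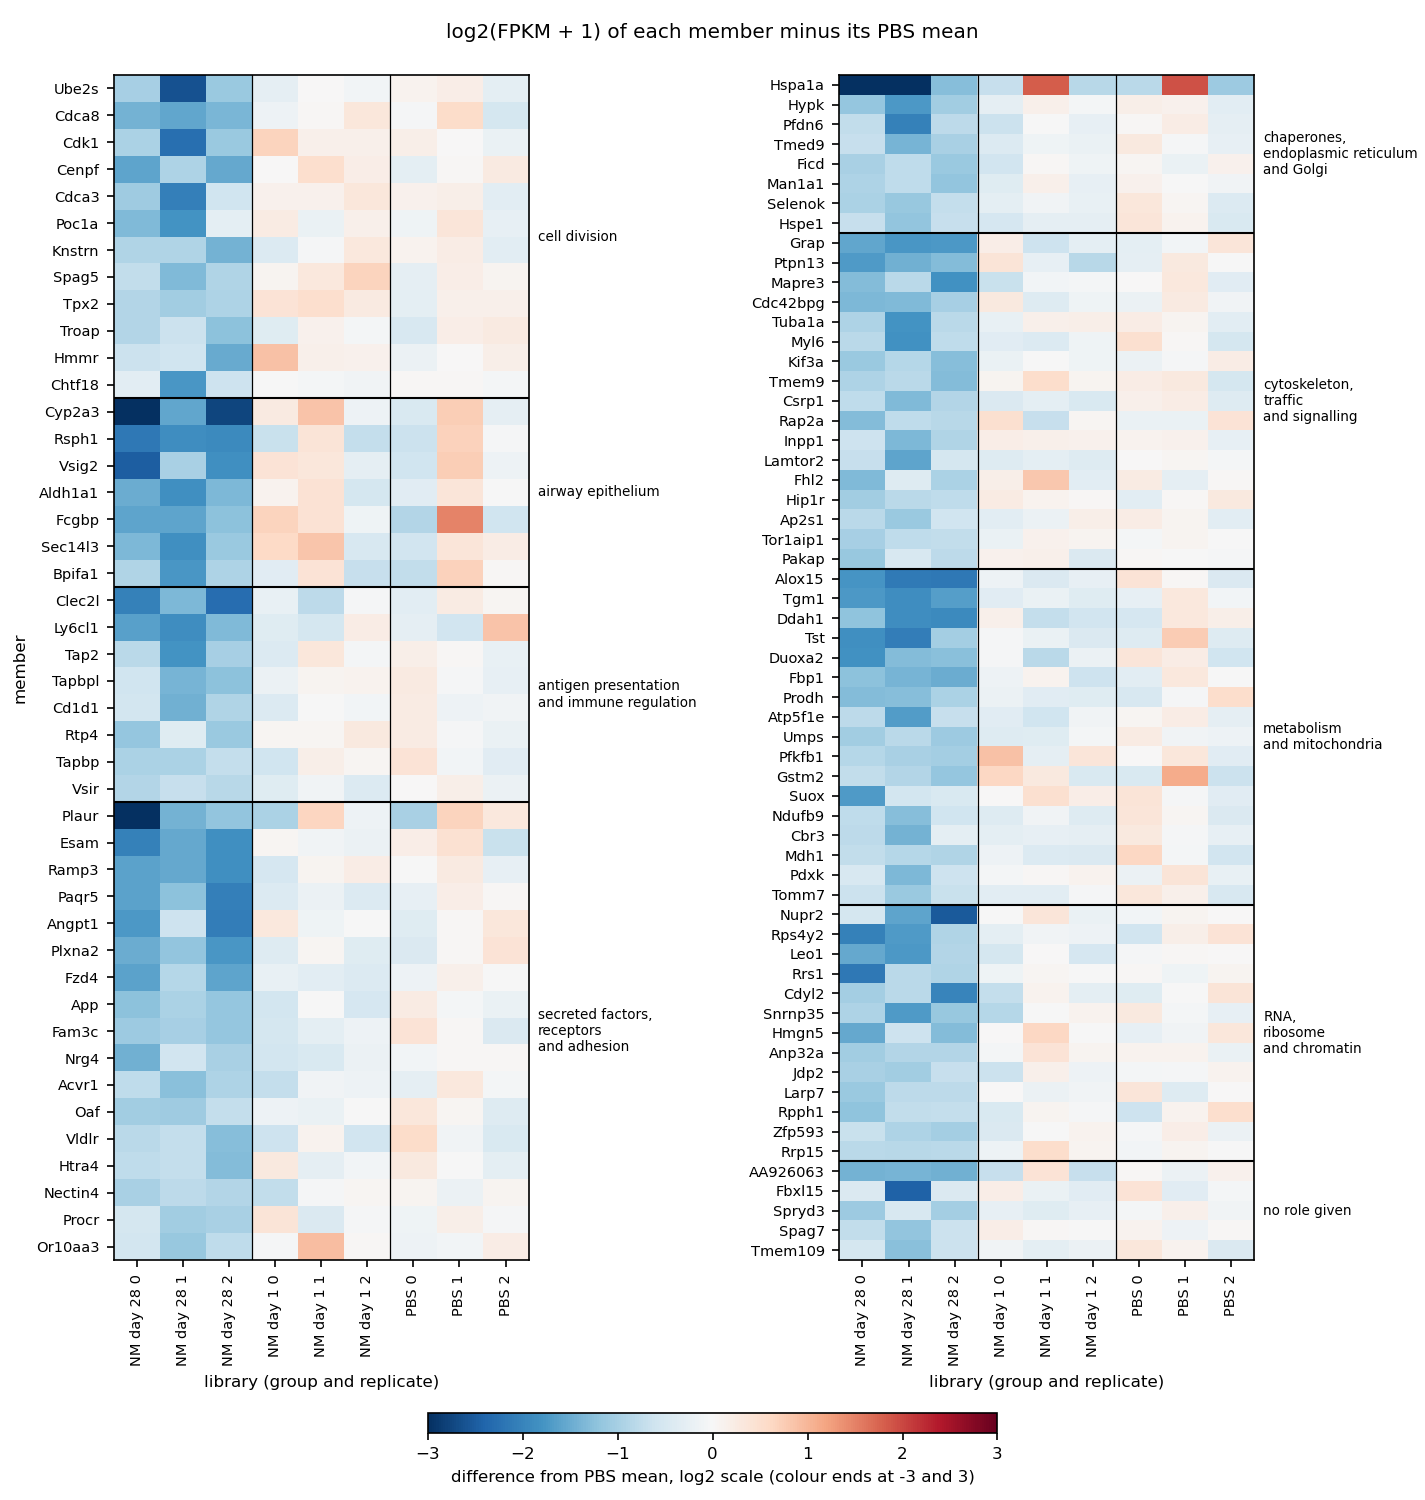
log2(FPKM + 1) of all 104 members in each of the 9 libraries minus the member's PBS mean (blue lower, red higher; the colour ends at 3 on either side of 0), with NM day 28 left, NM day 1 in the middle and PBS right, grouped by role. The 3 NM day 28 columns are blue throughout, as the rule requires. Replicate 1 is the lowest of them in 47 members, and PBS replicate 1 is the highest PBS column for the 7 airway members.

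Libraries did not contribute evenly to the set. The lowest NM day 28 value was in replicate 0 for 30 members, in replicate 1 for 47 and in replicate 2 for 27, and the highest PBS value was in replicate 0 for 35, in replicate 1 for 47 and in replicate 2 for 22. Among the 22 members with a PBS mean of at least 100 FPKM, many of them small proteins of mitochondria, chaperones and traffic, 14 were lowest in NM day 28 replicate 1. Without that library their median difference lay 0.17 closer to 0, at -0.83, with 14 of 22 still past -0.8. Leaving out 1 of the 6 NM day 28 and PBS libraries made the difference smaller by over 1.5 times in 11 members: Cbr3 (-0.83, and -0.53 without NM day 28 replicate 1), Fbxl15 (-1.10, and -0.43 without the same library), Suox (-0.90, and -0.51 without NM day 28 replicate 0) and the 8 others given above, Chtf18, Fcgbp, Gstm2, Lamtor2, Mdh1, Pfdn6, Plaur and Rrs1. For the 82 members under 100 FPKM the medians were -1.09 and -1.07, with 72 of 82 still past -0.8.

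Some members are neighbours in the genome. Of 102 members placed in the gene order of GRCr8, 6 pairs had at most 9 protein-coding genes between them. The number of such pairs in other sets of genes was not counted, so nothing is read from the number of pairs. Esam and Vsig2 on chromosome 8 are adjacent, Pfdn6 and Tapbp on chromosome 20 and Tuba1a and Troap on chromosome 7 have 1 gene between them, and Paqr5 and Anp32a on chromosome 8 have 2. Csrp1 and Tmem9 on chromosome 13 have 6, and Myl6 and Suox on chromosome 7 have 8. Neighbours differed in role and level: Esam and Vsig2 had differences of -1.80 and -1.76, whereas their PBS means were 15.7 and 4.98 FPKM.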

How the data were processed

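Per the submitters' processing notes, TopHat aligned the reads to rat build rn4 and Cuffdiff quantified them; versions, annotation, strand and how multiply matching reads were handled are not given in the sources used here. In FPKM units the authors deposited 18197 RefSeq transcript rows, and no rescaling was done. Per the labels' protocols, a TruSeq RNA kit and paired reads were used. Of these rows 17189 (94.5%) received a symbol from RefSeq's GRCr8 gene list. FPKM were summed per symbol, which gave 17109 features, of which 9885 had at least 1 FPKM in at least 3 of 9 libraries and were tested, 576 of them unnamed. Promoter windows came from RefSeq on GRCr8, a different build from rn4.

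The test was limma 3.58.1 under R 4.3.3, fitting log2(FPKM + 1) by lmFit to 3 group means over 9 libraries, with a trended eBayes and Benjamini-Hochberg adjustment over 9885 features. The method was tested on simulated data. Counts at an unadjusted p under 0.05 are given for several lists without the share over all tested genes. Nothing is read from those counts. The addition of 1 makes differences of low genes smaller than their FPKM ratio. Errors are the SD over 3 libraries or the SE of a fitted difference. The 6 members with several transcript rows (Cdyl2, Hip1r, Pakap, Pfdn6, Pfkfb1 and Tmem9) were used as sums; a listed 0 can be a failed estimate, and 3 members had an NM day 28 library at 0 (Cyp2a3, Hspa1a and Vsig2). Small genes with pseudogene copies may share reads.

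The members and the lists were chosen with earlier results of these data known; the role groups, the lists of mitosis, MHC class I loading and motile cilia, and the CHR motif were chosen after the values were seen. Genes given with full values were the 12 members with the lowest differences, the 8 with the highest PBS means, members on a pathway or cell type list, the 2 nearest the limit, up to 4 other genes of each list with at least 2 members, by smallest p, and 5 cell division members chosen after their values were seen, Cdk1, Cdca8, Tpx2, Hmmr and Spag5. The alternatives tried were each library left out in turn, a replicate block, only the 6 libraries compared, other pseudocounts (0.1 and 5), filters (none, or 5 FPKM) and scalings (median-of-ratios, quantile), isoforms singly, and a PBS mean of at least 10 FPKM. Python 3.11.15 with pandas 2.3.3, numpy 2.4.6 and matplotlib 3.10.9 made the tables and figures.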

Additional observations from a re-analysis of the deposited data

Results flagged for a closer look

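Of the 16 genes with the smallest p-values against PBS on the airway, coagulation, microtubule and mitochondrial import lists, up to 4 a list and members left out, 4 had limma effects that differed between the NM times, as measured by NM day 28 minus NM day 1 on the log2(FPKM + 1) scale. Itln1 differed by -4.14 (adjusted p = 0.000324), Bpifb1 by -2.95 (adjusted p = 0.00168) and Cyp2f4 by -1.75 (adjusted p = 0.0017). These 3 genes met every condition of the rule and were left out of the members only by name. The rule asks that every NM day 28 library lie below every NM day 1 library, so nothing is read from their separation or calls. Over all tested genes 6.88% were called lower at NM day 28 than at NM day 1, and 5.53% had every NM day 28 library below the NM day 1 and PBS libraries. Plat, the tissue plasminogen activator, differed by -2.38 (adjusted p = 0.00415): it was higher at NM day 1 than in PBS by 1.497 (adjusted p = 0.0444), and at NM day 28 its difference from PBS was -0.88 (adjusted p = 0.228).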

How the results depend on the processing

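Membership moved with the settings. With a pseudocount of 5 the rule found 61 symbols, 54 of them members, and with a PBS mean of at least 10 FPKM it found 61. The median member difference was -1.19 with a pseudocount of 0.1 and -0.82 with 5. Median-of-ratios scaling gave 101 symbols, 94 of them members, and quantile normalisation 80, of which 63 were. Leaving out each library in turn gave 93 to 187 members and medians of -1.17 to -1.05; 187 came without NM day 28 replicate 1, and the smallest overlap, 70 of 104, without PBS replicate 0. Genes lower at NM day 28 than in PBS numbered 393, and 212 with only the 6 libraries compared; genes lower at NM day 28 than at NM day 1 numbered 680, and 408 with a filter of 5 FPKM. With a library left out these counts ran from 117 to 426 (117 without PBS replicate 1) and from 394 to 775 (394 without NM day 1 replicate 1). Genes higher ran from 154 to 367 against PBS (154 without PBS replicate 1) and from 225 to 628 against NM day 1 (225 without NM day 28 replicate 0), and genes called between NM day 1 and PBS from 318 to 1374 (318 without NM day 1 replicate 0). The causes were not tested; a left-out library leaves 2 in its group. Same-numbered libraries of different groups had correlations of -0.104 to 0.196 in their deviations, 3 of 9 over 0.1. With 3 libraries a group these correlations cannot decide whether the numbers pair the samples. With a replicate block 348 genes were lower and 278 higher at NM day 28 than in PBS, and 642 lower and 411 higher than at NM day 1. The call of Timm13 had an adjusted p of 0.0654 with that block and 0.0551 with median-of-ratios scaling, and was lost without each of 7 libraries. The call of Plau was lost with no filter (adjusted p = 0.0659) and without each of 4 libraries. The call of Scgb3a1 was lost with no filter (adjusted p = 0.0570) and without PBS replicate 1 or 2 (adjusted p = 0.0702 and 0.0506). No scaling moved the median of all genes by over 0.1. Genes of low FPKM are limited by depth, since 1 read weighs more in a shallower library.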

Other observations

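Gstm2 and Mdh1 met the rule, but neither was called lower at NM day 28 than in PBS by limma. Of 38 other glutathione and thioredoxin enzymes 5 were higher and 0 lower at NM day 28 than in PBS by limma (9 and 3 at an unadjusted p under 0.05), against 3.07% higher and 3.98% lower over all genes tested, and their median difference was -0.03. The 5 were Gclc, which limits the rate of glutathione synthesis (0.98, adjusted p = 0.00993), Srxn1, which repairs peroxiredoxins (1.51, adjusted p = 0.0122), the glutathione transferases Gstp1 (1.55, adjusted p = 0.0118) and Gsta1 (1.503, adjusted p = 0.0335) and the thioredoxin reductase Txnrd1 (0.78, adjusted p = 0.0469). Of 23 other genes of the TCA cycle, with a median of 0.11, 2 were higher and 0 lower (4 and 0 at an unadjusted p under 0.05): Idh1 (0.76, adjusted p = 0.0274) and Fh (0.69, adjusted p = 0.0241).

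Of 34 other cytosolic chaperones and heat shock genes, the list of Hspa1a, 2 were lower and 0 higher by limma (12 and 2 at an unadjusted p under 0.05): Fkbp4 (-0.74, adjusted p = 0.0221), a partner of Hsp90, and Cct7 (-0.74, adjusted p = 0.0384), a subunit of the chaperonin TRiC. Of 50 other genes of the actin cytoskeleton, the list of Myl6, 3 were lower and 0 higher (14 and 6 at an unadjusted p under 0.05): Arpc1b (-0.91, adjusted p = 0.0377) of the Arp2/3 complex, Myh9 (-0.76, adjusted p = 0.0293), the heavy chain of non-muscle myosin that pairs with Myl6, and tropomyosin Tpm1 (-0.68, adjusted p = 0.0343). Called shares of these sizes stand near the 3.98% over all genes tested and are not a result about either list. The unadjusted counts have no such share beside them, so nothing is read from them either. The median differences were -0.18 for the chaperones and -0.195 for the actin genes. The genes above were named because they passed the test, after their values were seen.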
